A study of Mus musculus with 16 samples.

Results

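Hearts of mouse embryos in which Rbpj had been deleted from the early mesoderm were compared with control hearts across all genes measured on a beadchip microarray. The comparison used 7 of the 16 arrays in the series, chosen by their genotype labels: 3 arrays of KO hearts, labelled MesP1-cre:RBPJlox/lox, and 4 arrays of control hearts, labelled wild type. All were whole embryonic hearts at E9.25, with 22 to 24 somites, when the looped heart tube forms its chambers, on a mixed C57/BL6;129Ola background. A second pair of groups, read from other arrays, was set beside this comparison. These were 4 arrays of DKO hearts (MesP1-cre:RBPJlox/lox//Axin2-/-) and 3 arrays of hetDKO hearts (MesP1-cre:RBPJlox/+//Axin2-/-), so that both of its groups carry MesP1-cre and lack Axin2. The other 2 arrays of the series, titled DKOhet, are not described here. They entered the normalisation, the probe filter, the choice of probe and the shared estimate of the spread. The control label names no cre, so that effects of MesP1-cre itself and of the Rbpj deletion cannot be told apart between KO and control. MesP1-cre is active in the mesoderm that forms the heart and also other tissues, and the labels do not say which cells of the dissected heart still held Rbpj. Rbpj and Axin2 had no probe under their symbols and were not analysed here, so the genotype labels could not be checked against them. Whether each array came from a separate embryo is not stated, so p-values reflect the spread among arrays, which could be partly technical.

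Rbpj is the DNA-binding protein of the Notch pathway. Without a signal it holds target genes down together with corepressors, and when a Notch receptor is cleaved its intracellular domain joins Rbpj and turns them on. In the heart at this stage, Notch signals pass mainly within the endocardium and from it to the neighbouring muscle, where they are known for shaping the trabeculae, the valves and the boundaries between chambers. The array reads total RNA of the whole organ, so that fewer cells of a type and less RNA per cell cannot be told apart for any gene below.

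Promoter sequences were read for the genes whose groups carry the results. RefSeq windows of GRCm38.p6, running from 250 bases before to 50 bases after a gene's start, matched 7853 of the 9697 genes tested (81.0%). The 4 that follow belong to enzymes of collagen hydroxylation and of glycogen metabolism that rose in KO hearts, and were picked because they hold the motif ACGTG. Capitals mark ACGTG, or its reverse complement CACGT, the core of the element that hypoxia-inducible factors bind. The windows are P4ha1 (chr10:59323046-59323345, plus strand), P4ha2 (chr11:54100674-54100973, plus strand), Pygl (chr12:70227634-70227933, minus strand) and Ppp1r3c (chr19:36736555-36736854, minus strand), each written 5′ to 3′ along its gene.
P4ha1: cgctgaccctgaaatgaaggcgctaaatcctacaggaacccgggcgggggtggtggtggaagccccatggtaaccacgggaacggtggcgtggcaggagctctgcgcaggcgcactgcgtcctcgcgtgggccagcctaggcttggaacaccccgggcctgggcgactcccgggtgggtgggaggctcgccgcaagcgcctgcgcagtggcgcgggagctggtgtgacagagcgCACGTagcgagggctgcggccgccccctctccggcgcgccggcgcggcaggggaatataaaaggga
P4ha2: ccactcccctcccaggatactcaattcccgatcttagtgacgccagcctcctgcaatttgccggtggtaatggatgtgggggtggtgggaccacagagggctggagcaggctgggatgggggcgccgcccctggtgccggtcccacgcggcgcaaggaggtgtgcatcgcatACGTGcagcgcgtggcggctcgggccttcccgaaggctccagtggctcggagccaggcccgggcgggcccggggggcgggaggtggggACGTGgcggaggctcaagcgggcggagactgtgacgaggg
Pygl: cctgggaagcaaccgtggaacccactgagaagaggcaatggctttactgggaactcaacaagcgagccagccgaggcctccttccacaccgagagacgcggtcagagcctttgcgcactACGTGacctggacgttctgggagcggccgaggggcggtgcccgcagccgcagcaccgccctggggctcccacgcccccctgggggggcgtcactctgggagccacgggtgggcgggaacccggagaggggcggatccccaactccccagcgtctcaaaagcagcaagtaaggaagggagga
Ppp1r3c: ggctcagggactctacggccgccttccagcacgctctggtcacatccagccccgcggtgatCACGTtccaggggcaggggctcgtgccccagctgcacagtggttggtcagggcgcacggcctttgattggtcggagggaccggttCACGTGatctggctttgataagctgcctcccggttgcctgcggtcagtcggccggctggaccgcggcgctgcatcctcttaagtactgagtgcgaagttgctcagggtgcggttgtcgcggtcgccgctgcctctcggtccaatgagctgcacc
P4ha1 and Pygl each held 1 match, P4ha2 held 2, and Ppp1r3c held 3, of which 2 are the same CACGTG read on both strands. Other members of these groups lack it: ACGTG was in 5 of 12 windows of collagen-modifying enzymes and 7 of 13 of glycogen genes. ACGTG was present, on either strand, in 25.7% of all windows, in 113 of the 315 windows of genes that rose (35.9%) and in 62 of the 233 windows of genes that fell (26.6%). Among genes that rose at least 2-fold it was present in 32 of 81 windows (39.5%), and among genes that fell at least 2-fold in 4 of 20 (20%). CACGTG, which contains ACGTG, was in 9.996% of all windows, in 9.84% of those that rose and in 11.6% of those that fell. TGGGAA, the core of the Rbpj site, was in 23.1% of all windows, in 22.5% of those that rose and in 21.9% of those that fell. The longer GTGGGAA, which contains it, was in 6.1% of all, 6.67% of those that rose and 4.72% of those that fell. Among genes changed at least 2-fold, TGGGAA was in 20 of 81 windows that rose (24.7%) and 3 of 20 that fell (15%), and GTGGGAA in 7 of 81 (8.64%) and 2 of 20 (10%). The Pygl window above also holds TGGGAA 2 times, in lower case, and the other 3 do not hold it. The window of Gja5, the gene for connexin 40 that fell most clearly, held no TGGGAA on either strand (chr3:97032152-97032451, plus strand).
Gja5: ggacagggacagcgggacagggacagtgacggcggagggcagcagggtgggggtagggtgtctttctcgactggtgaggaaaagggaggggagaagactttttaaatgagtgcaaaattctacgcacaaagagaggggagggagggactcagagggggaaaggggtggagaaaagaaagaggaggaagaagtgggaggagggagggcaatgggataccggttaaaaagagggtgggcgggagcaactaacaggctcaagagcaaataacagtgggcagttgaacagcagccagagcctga
These 4 motifs were chosen after earlier results were known, and a match is a string of letters, not a bound site. The windows reach only a short way from the start, and distant enhancers were not read.

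The arrays detected between 12360 and 13196 probes each and held the genes of embryonic heart muscle. Of 8 cardiomyocyte markers, 7 were measured, and 6 to 7 of them were detected on every array. Their summed signal ranged between 53763 and 112520 in KO hearts and between 75616 and 117910 in control hearts, on the linear scale. None of the 7 passed the test (limma), and at an unadjusted p under 0.05 none did either. Of the 7, 6 had negative differences, between -1.02 for Myh6, a cardiac myosin heavy chain, and 0.10 for Actc1, the cardiac actin gene, with a median of -0.46. Their other probes changed by -1.79 and -0.50, and neither passed. The arrays lay on 2 beadchips. On the second principal component (15.3% of the variance), KO and control arrays of beadchip 1 had negative scores and those of beadchip 2 positive scores. KO replicate 2 stood apart on the third principal component, at 45.8 against a next highest score of 15.9. On this array Prl4a1, a placental prolactin-family gene, had a log2 signal of 13.87, against 10.93 and 8.77 on the other 2 KO arrays and 6.37 to 9.78 on control arrays. Of 15 placental markers 4 were measured. Their summed signal was 15378 on KO replicate 2, 2350 on KO replicate 1 and 744.2 on KO replicate 3, against 354.9 to 1082 in control hearts. KO replicate 1 thus also lay above all control arrays. The median difference of the 4 was 0.91, or 0.81 without KO replicate 2, and none was called. The 7 erythroid markers of 9 that were measured were detected on all 7 arrays, with sums of 247780 to 309730 in KO hearts and 211630 to 287860 in control hearts. Lyz2, the 1 macrophage marker of 6 that was measured, was at 9.77 on KO replicate 2 and at 5.52 to 6.54 on the other 6 arrays. Control replicate 4 also stood apart, with the lowest weight of all arrays (0.309). Most groups of genes below are therefore also given without KO replicate 2.

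Deletion of Rbpj was accompanied by more rises than falls with quantile normalisation and each gene read from its brightest probe, and the rises were larger. Of 9697 genes tested, 382 rose and 282 fell in KO hearts (limma, Benjamini-Hochberg adjusted p under 0.05), which is 6.85% of all genes, 3.94% rising and 2.91% falling. The median log2 difference was 0.76 among those that rose, -0.63 among those that fell and 0.00 over all genes, where 1 corresponds to a 2-fold difference. At least a 2-fold change was seen for 109 genes that rose and 30 that fell. All 3 KO arrays lay above all 4 control arrays for 372 of the 382 and below them for 269 of the 282, while over all genes the shares without overlap were 10.4% above and 8.97% below. Without KO replicate 2, 286 genes rose (2.95%) and 170 fell (1.75%), together 4.7% of all. Of the 382, 244 were still called higher, and of the 282, 135 were still called lower. None of the 664 changed sign, but where the groups did not overlap, leaving out an array could not turn the sign. When the fit held only the 7 KO and control arrays, with a spread estimated from them alone, 175 genes rose and 54 fell. Within beadchip 1, with 2 arrays of each group, 131 rose and 46 fell, and within beadchip 2, with 1 KO and 2 control arrays, 69 rose and 6 fell. Median scaling of the arrays in place of quantile normalisation gave 334 rises and 334 falls, and reading each gene from its lowest-p probe gave 415 rises and 465 falls, so the balance between rises and falls depended on the scaling and on the probe.

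**Figure D1:**
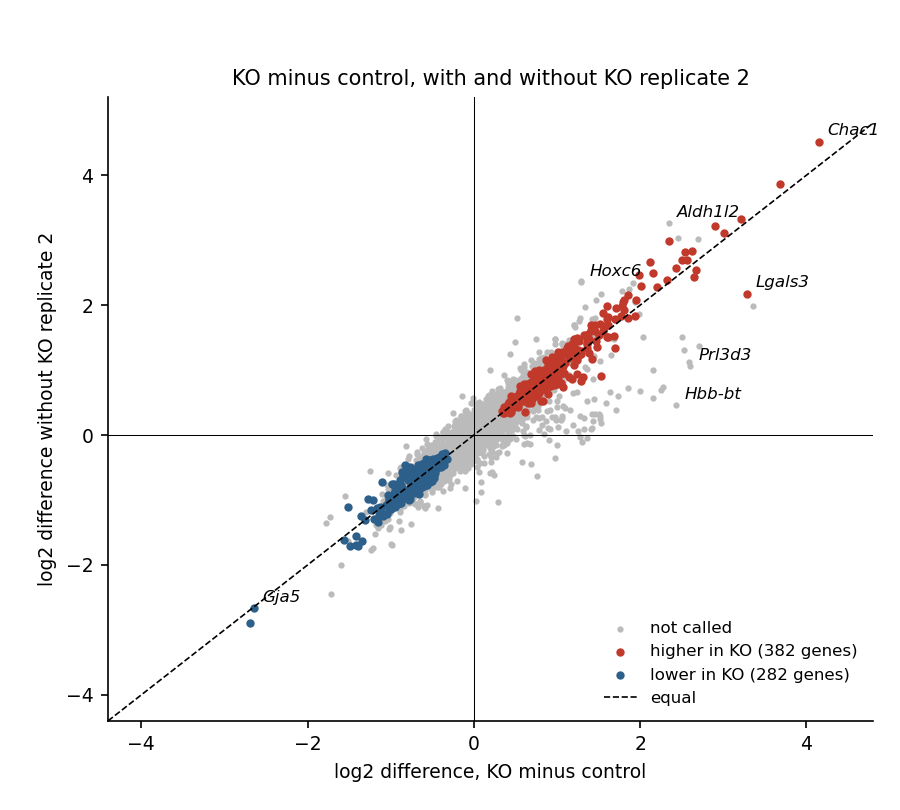
Each point is 1 of 9697 genes, with the log2 difference between KO and control hearts on the horizontal axis and the same difference without KO replicate 2 on the vertical axis. Among the genes that rose (382) and fell (282), Lgals3 lies farthest from the line of equality, while uncalled genes such as Prl3d3 and Hbb-bt lie far below it.

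The largest rises stood far outside the control range. Nrn1, which encodes a neuritin anchored to the cell surface, had log2 signals of 9.83, 9.43 and 10.16 in KO hearts, against 5.90, 5.87, 5.80 and 6.93 in control hearts. Its lowest KO array exceeded its highest control array, and it was detected on 1 of 4 control arrays. Cox4i2, the hypoxia-inducible isoform of a cytochrome c oxidase subunit, was at 9.80, 10.57 and 10.05 in KO hearts, against 7.35, 7.36, 6.93 and 8.34 in control hearts. The groups did not overlap, and the difference was 2.65 ± 0.33 (SE, adjusted p = 0.000405). Stc2, a secreted glycoprotein of calcium and phosphate balance, rose by 2.90 ± 0.28 (adjusted p = 3.86e-05) and Vldlr, a receptor for lipoproteins and reelin, by 2.43 ± 0.22 (adjusted p = 2.79e-05). Il4, a cytokine gene, and Car9, a carbonic anhydrase, stayed at background level on all 4 control arrays and were at least 2.67-fold and 4.55-fold higher in KO hearts (adjusted p = 0.00248 and 0.000117). These bounds set the KO mean against the lowest signal among detected probes on each control array. Lgals3, the gene for galectin 3, had 10.09, 12.91 and 9.10 in KO hearts, against 7.14, 7.52, 7.14 and 7.87 in control hearts. KO replicate 2 was the highest of all arrays, and without it the difference was 2.18 in place of 3.28 (adjusted p = 0.0398 and 0.0149).

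Among the genes with the largest falls were Gja5, Mylpf, Hspb3, Fbxl22, Dbx1 and Foxe1. Gja5, whose product couples atrial and trabecular muscle cells, had 6.60, 7.15 and 7.59 in KO hearts, against 9.58, 9.81, 9.72 and 9.94 in control hearts. No KO array came within 1 unit of any control array, and the difference was -2.65 ± 0.24 (adjusted p = 2.79e-05). Of its 2 other probes, 1 changed by -2.02 (adjusted p = 5.81e-06) and 1 by -0.07 (adjusted p = 0.858). Mylpf, the fast skeletal muscle regulatory light chain, was at 7.82, 8.66 and 7.86 in KO hearts, against 9.67, 9.24, 9.94 and 9.26 in control hearts, and fell by 1.41 without overlap (adjusted p = 0.00812). Hspb3, a small heat shock protein of muscle, was at 6.95, 8.34 and 7.78 in KO hearts, against 9.02, 9.02, 8.97 and 9.31 in control hearts, again without overlap (difference -1.39 ± 0.29, adjusted p = 0.0121). Fbxl22, an F-box protein of the cardiac sarcomere, was detected on no KO array and on all 4 control arrays, at least 1.57-fold lower (adjusted p = 0.00161). The homeobox gene Dbx1, known from neural progenitors, fell by 2.69 and was detected on 1 of 3 KO arrays. It was the 1 gene among 5 measured neural markers that passed, the summed signal of which was 2483 to 2829 in KO hearts and 3415 to 4988 in control hearts. Foxe1, a forkhead gene of pharyngeal endoderm, fell by 1.20 (adjusted p = 0.0173), and the 6 measured pharyngeal markers summed to 6475 to 8298 in KO hearts and 7345 to 10114 in control hearts. Whether the amount of neighbouring tissue in the dissections contributed was not tested.

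To see which kinds of genes moved, 35 gene lists, 55 gene families and 9 sets of cell type markers were counted. Those described below were chosen with their counts known, and include most of the groups with the highest shares of calls and some close to the known roles of Notch in the heart, so their counts are to be read beside the shares over all genes given above. Members are not independent of each other, and the lists are described by counts and medians with no test of a list.

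**Figure D2:**
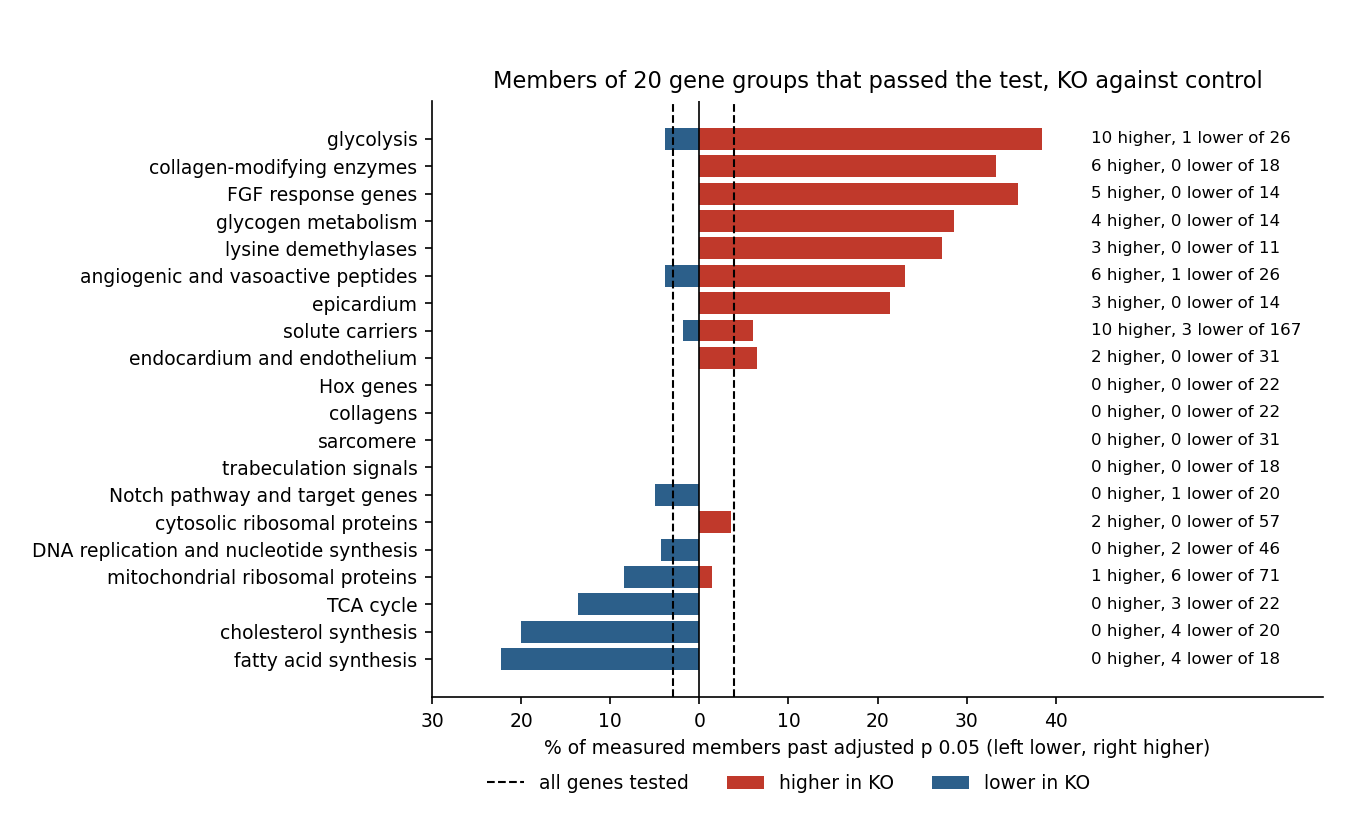
Bars give the percentage of measured members of 20 gene groups that passed limma's test at an adjusted p under 0.05, to the right for genes that rose and to the left for genes that fell in KO hearts. Dashed lines mark the shares over all 9697 genes, 3.94% rising and 2.91% falling. Glycolysis (10 of 26), collagen-modifying (6 of 18), glycogen (4 of 14) and FGF response genes (5 of 14) lie to the right, and fatty acid (4 of 18) and cholesterol (4 of 20) synthesis genes to the left.

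Several enzymes that modify collagen rose, and no collagen gene passed the test. Of 18 measured enzymes, 6 rose and none fell, with a list median of 0.31. P4ha2 and P4ha1, the catalytic subunits of prolyl 4-hydroxylase, which stabilises the collagen triple helix, rose by 1.86 ± 0.25 and 1.46 ± 0.20 (SE, adjusted p = 0.000663 and 0.000718). P4ha2 was at 10.65, 9.87 and 10.89 in KO hearts, against 8.72, 8.87, 8.75 and 8.09 in control hearts, and P4ha1 at 9.99, 9.44 and 10.34 in KO hearts, against 8.33, 8.60, 8.52 and 8.41 in control hearts. In both, every KO array was above every control array, and KO replicate 2 was the lowest of the KO arrays. Plod2, a lysyl hydroxylase that determines the type of collagen crosslink, had 11.68, 11.23 and 12.15 in KO hearts, against 10.50, 10.33, 10.41 and 10.97 in control hearts. Loxl2, a lysyl oxidase that crosslinks collagen, rose by 0.83 ± 0.13, Lox, another such oxidase, by 1.70 ± 0.45, and Colgalt1, which adds galactose to collagen hydroxylysine, by 0.37 ± 0.10 (adjusted p = 0.00248, 0.0342 and 0.0436). The partner subunit P4hb (0.32), the relatives Plod1 (0.31) and Plod3 (0.29), and the collagen chaperone Serpinh1 (0.15) did not pass. Among 22 measured collagen genes none was called by limma and 1 had an unadjusted p under 0.05, a fall, with a median of 0.08. Without KO replicate 2, 7 of the 18 enzymes rose, 5 of the 6 among them, and the median was 0.42, and the medians within the beadchips were 0.38 and 0.18. Lox did not pass without that array (adjusted p = 0.0653).

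Genes of glycolysis and of the entry of its products into mitochondria had the highest share of calls among all lists. Of 26 measured members, glucose transporters included, 10 rose, 1 fell and 23 had positive differences, with a median of 0.41. Aldoc, an aldolase that splits fructose 1,6-bisphosphate, had 10.11, 10.16 and 9.89 in KO hearts, against 7.92, 8.55, 7.99 and 8.33 in control hearts, and rose by 1.86 ± 0.17 without overlap (adjusted p = 2.96e-05). Pdk1, the kinase that holds back pyruvate dehydrogenase, rose by 1.17 ± 0.13, Hk2, a hexokinase, by 0.99 ± 0.14, and Aldoa, the aldolase of muscle, by 0.83 ± 0.12 (adjusted p = 0.000117, 0.00134 and 0.00134). Pgam2, the muscle form of phosphoglycerate mutase, was the 1 that fell, at 9.56, 10.62 and 10.41 in KO hearts, against 10.78, 11.19, 11.09 and 10.87 in control hearts (difference -0.78, adjusted p = 0.0425). Of the 10, 8 were still called without KO replicate 2, Pgam2 still fell and the median was 0.40, and the medians within the beadchips were 0.45 and 0.39.

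Genes of glycogen turnover rose as well, on the side of both storage and release. Of 14 measured members 4 rose, none fell and the median was 0.35. Pygl, the liver form of glycogen phosphorylase, which releases glucose 1-phosphate from glycogen, had 12.60, 12.49 and 12.59 in KO hearts, against 10.92, 11.22, 10.94 and 11.12 in control hearts. The 3 KO arrays lay close together and more than 1 unit above the highest control array, and the difference was 1.51 ± 0.12 (adjusted p = 7.99e-06). A second probe of Pygl rose by 1.28. Ppp1r3c, which brings protein phosphatase 1 to glycogen and so favours its synthesis, was at 12.55, 12.30 and 12.73 in KO hearts, against 10.81, 11.04, 10.82 and 11.15 in control hearts, and rose by 1.57 ± 0.17 (adjusted p = 0.000131). Pgm1, phosphoglucomutase, which links glycogen to glycolysis, was at 13.18, 13.09 and 13.30 in KO hearts, against 11.63, 11.85, 11.90 and 11.91 in control hearts (difference 1.37 ± 0.15, adjusted p = 0.000149). Neither gene's groups overlapped. Gaa, the lysosomal glucosidase that degrades glycogen, rose by 0.62 (adjusted p = 0.034). Gys1, the muscle glycogen synthase (0.15), and Gyg, the primer of glycogen (0.34), did not pass. The same number, 4, rose without KO replicate 2, and the medians within the beadchips were 0.38 and 0.28.

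**Figure D3:**
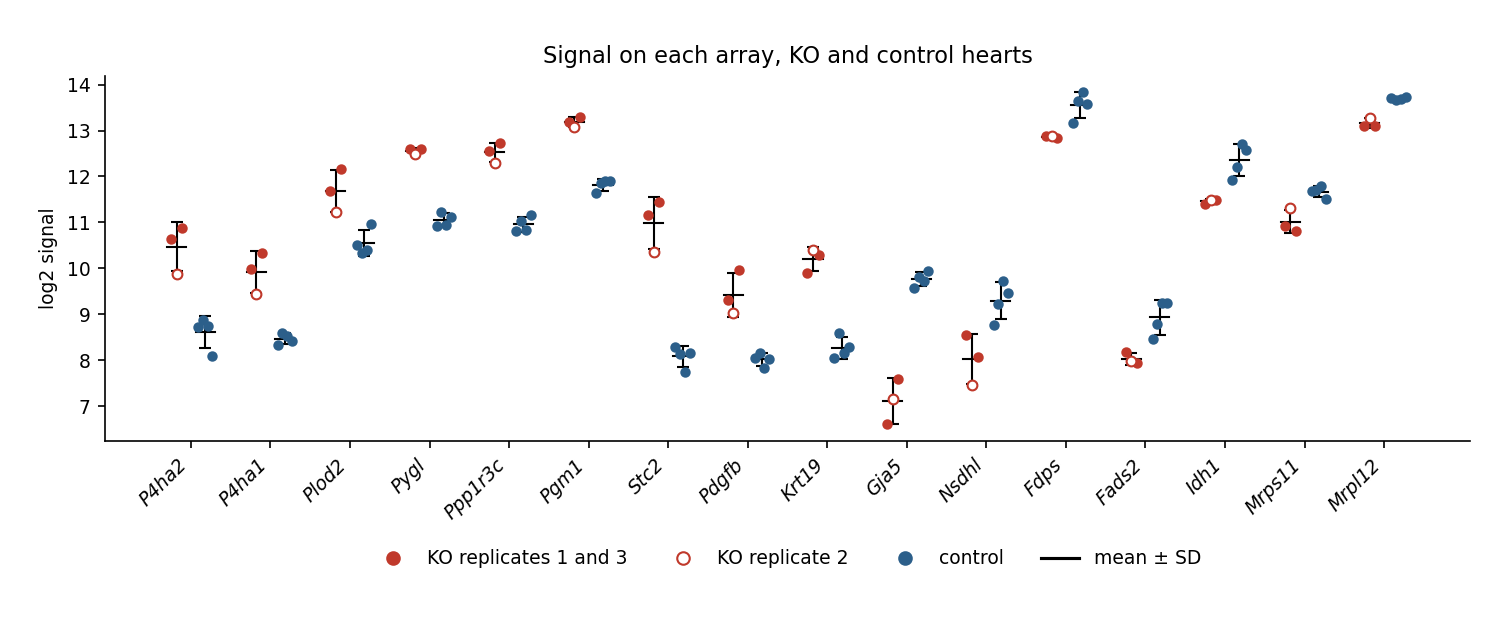
Log2 signal of 16 genes on each KO array (left of each pair) and each control array (right), with bars for the mean and SD. From P4ha2 to Krt19 all 3 KO arrays lie above the 4 control arrays, and from Gja5 to Mrpl12 they lie below them, with KO replicate 2 drawn as an open circle.

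Secreted factors that act on vessels rose, Vegfa and Stc2 among them. Of 26 measured angiogenic and vasoactive genes 6 rose and 1 fell, with a median of 0.20. Pdgfb, the growth factor that recruits mural cells to vessels, had 9.30, 9.02 and 9.95 in KO hearts, against 8.06, 8.16, 7.82 and 8.03 in control hearts, and rose by 1.41 ± 0.25 without overlap (adjusted p = 0.00419). Adm, the vasodilator peptide adrenomedullin, was at 8.90, 9.57 and 9.40 in KO hearts, against 6.07, 7.05, 6.02 and 7.33 in control hearts and was detected on 2 of 4 control arrays. Vegfb and Vegfc, relatives of Vegfa, rose by 0.49 ± 0.11 and 0.63 ± 0.17 (adjusted p = 0.0195 and 0.0372). Angpt1, a ligand of the endothelial receptor Tek that the heart muscle makes, was the 1 that fell, by 0.86 (adjusted p = 0.0435). Its groups overlapped, and without KO replicate 2 the difference was -0.57 and did not pass (adjusted p = 0.158). Without that array 5 of the 26 rose.

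Of 14 genes that respond to FGF signals, 5 rose and none fell, with a median of 0.19. Spred1, an inhibitor of the Ras pathway, rose by 0.81 ± 0.15, and Dusp4, a phosphatase that turns off MAP kinases, by 0.84 ± 0.16 (adjusted p = 0.00713 and 0.00616). Dusp4 was at 10.55, 10.94 and 10.58 in KO hearts, against 9.97, 9.87, 9.51 and 10.06 in control hearts, without overlap. The other 3 that rose were Fos, Egr1 and Myc, genes that many signals induce. The receptor-level inhibitor Spry1 (-0.03) and the ETS factors Etv4 (-0.12) and Etv5 (0.04), which follow FGF more directly, did not pass. Without KO replicate 2, 4 of the 14 rose, and within beadchip 1 and beadchip 2 the medians were 0.26 and 0.23.

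Lysine demethylases, oxygen-dependent enzymes that take methyl groups off histones, rose in 3 of 11 cases, and the family median was 0.29. Of the 11, 7 had positive differences, and the lowest difference was -1.25, which did not pass. Kdm3a, which acts on histone H3, had 13.23, 12.57 and 13.12 in KO hearts, against 12.07, 11.74, 12.12 and 11.97 in control hearts, and rose by 0.998 ± 0.15 (adjusted p = 0.00172). Its 2 other probes rose by 0.93 and 0.95. Kdm4c and Kdm4b, its relatives, rose by 0.78 ± 0.19 and 0.56 ± 0.15 (adjusted p = 0.0279 and 0.0391), but of the 2 other Kdm4b probes, 1 changed by 0.04 and 1 by 0.40, and neither passed. Without KO replicate 2 Kdm4c just missed the threshold (adjusted p = 0.0502).

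All 14 measured genes of the epicardium, the outer cell layer that spreads over the heart at this stage, had positive differences, and 3 passed the test (median 0.59). Wt1, a transcription factor of the epicardium, had 11.03, 11.14 and 11.59 in KO hearts, against 10.61, 9.67, 10.37 and 9.36 in control hearts, and rose by 1.25 ± 0.34 (adjusted p = 0.0414). Krt8, a simple epithelial keratin, was at 13.61, 13.95 and 13.59 in KO hearts, against 12.64, 12.76, 12.24 and 12.92 in control hearts, and rose by 1.07 ± 0.20 (adjusted p = 0.00656). Krt19 rose by 1.93, but Tbx18 (0.31) and Tcf21 (0.33), both markers of the same layer, and Aldh1a2 (0.27) did not pass. The summed signal of 6 epicardial markers was 5702 to 8505 in KO hearts and 2519 to 4238 in control hearts. Without KO replicate 2 the list median was 0.73 and 2 of the 3 passed, with Wt1 at an adjusted p of 0.0772. Among 31 genes of endocardium and endothelium 2 rose, Sox17 by 1.24 and Sox7 by 0.89, and the median was 0.00.

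Genes for making lipids shifted the other way, in small steps shared by most members. Of 20 measured genes of cholesterol synthesis and its control, 4 fell, none rose and 19 had negative differences, with a list median of -0.55, against 0.00 over all genes. Nsdhl, a sterol dehydrogenase late in the pathway, had 8.55, 7.46 and 8.06 in KO hearts, against 8.77, 9.23, 9.72 and 9.46 in control hearts. KO replicate 2 was lowest, the groups did not overlap, and the difference was -1.27 ± 0.31 (adjusted p = 0.0261). Its 3 other probes changed by -1.15, -1.27 and -0.57. Fdps, which makes farnesyl diphosphate, was at 12.89, 12.88 and 12.83 in KO hearts, against 13.16, 13.64, 13.83 and 13.58 in control hearts, and changed by -0.69 ± 0.19 (adjusted p = 0.0414). Pmvk, phosphomevalonate kinase, and Hsd17b7, another late enzyme, changed by -0.66 ± 0.16 and -0.56 ± 0.14 (adjusted p = 0.0261 and 0.029). Cyp51 (-0.87), Msmo1 (-0.80), Dhcr7 (-0.69) and Hmgcs1 (-0.59), enzymes of the same route, did not pass. The median was -0.50 without KO replicate 2, and -0.48 and -0.71 within the beadchips. The number past the threshold was less stable: 2 without KO replicate 2, 0 without KO replicate 3 and 0 with KO and control arrays only. Of the 4 genes described, Pmvk alone was still called without KO replicate 2 (adjusted p = 0.0163), and the adjusted p of Fdps, Nsdhl and Hsd17b7 was then 0.0881, 0.098 and 0.107.

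In fatty acid synthesis 4 of 18 genes fell, none rose and 16 had negative differences (median -0.23). Fads2, a desaturase of long-chain fatty acids, changed by -0.91 ± 0.20 (adjusted p = 0.0148), with every KO array below every control array. Scd2 had 9.90, 9.78 and 10.26 in KO hearts, against 10.40, 10.95, 10.94 and 10.78 in control hearts, also without overlap. Scd2 and Scd1, desaturases that make oleic acid, changed by -0.79 ± 0.18 and -0.78 ± 0.22, and Elovl6, an elongase, by -0.42 ± 0.10 (adjusted p = 0.0196, 0.0438 and 0.024). Only Fads2 of these passed without KO replicate 2, when the differences of Scd2, Scd1 and Elovl6 were -0.69, -0.68 and -0.35. Fasn (-0.25) and Acaca (-0.25), which build the chain, did not pass.

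In the mitochondria, 6 of 71 mitochondrial ribosomal protein genes fell while 1 rose. Of 22 genes of the citric acid cycle and its branches, 3 fell and none rose, with a list median of -0.08. At an unadjusted p under 0.05 (limma), 4 of the 22 were higher and 4 lower. Without KO replicate 2, 2 of the 3 still fell. Idh1, the cytosolic isocitrate dehydrogenase that the list includes, had 11.40, 11.48 and 11.49 in KO hearts, against 11.93, 12.22, 12.72 and 12.58 in control hearts, and changed by -0.90 ± 0.20 (adjusted p = 0.0175). Idh3a, a subunit of the mitochondrial enzyme, fell by 0.63 (adjusted p = 0.0297), and Ogdh, of the oxoglutarate dehydrogenase complex, fell by 0.53 with overlapping groups (adjusted p = 0.0493). Mrps11, of the small mitochondrial subunit, was at 10.93, 11.31 and 10.81 in KO hearts, against 11.67, 11.71, 11.79 and 11.50 in control hearts, and its second probe changed by -0.58. Mrpl12, of the large subunit, was at 13.11, 13.28 and 13.10 in KO hearts, against 13.70, 13.67, 13.69 and 13.74 in control hearts. Neither gene's groups overlapped, and the differences were -0.65 ± 0.13 and -0.54 ± 0.12 (adjusted p = 0.00995 and 0.0162). Mrpl18, Mrpl4, Mrpl51 and Mrpl58 also fell, by 0.32 to 0.66, and Mrpl23 rose by 0.47. A second probe of Mrpl18 changed by 0.09. The median of the 71 was -0.18, and -0.23 without KO replicate 2, when 5 of the 6 still fell, without Mrpl51 (adjusted p = 0.115), and Mrps34 fell as well. It was -0.28 within beadchip 1 and -0.02 within beadchip 2, where KO replicate 2 is the KO array. Cytosolic ribosomal protein genes had a median of 0.08, with 2 of 57 rising.

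Transporters of nutrients moved in part. Of 167 solute carriers 10 rose (5.99%) and 3 fell (1.80%), with a median of 0.02, so the family as a whole lay near the background. Without KO replicate 2, 9 rose and 1 fell, with 7 of the 10 and 1 of the 3 among them. Slc2a1 and Slc2a3, the main glucose transporters of embryonic tissue, rose by 0.88 ± 0.15 and 0.93 ± 0.18 (adjusted p = 0.00306 and 0.00808). Slc16a6, of the monocarboxylate carrier family, had 8.99, 8.71 and 9.14 in KO hearts, against 7.71, 7.93, 7.88 and 8.12 in control hearts, without overlap. Its 2 other probes changed by 1.23 and 0.24. Slc37a4, which carries glucose 6-phosphate into the endoplasmic reticulum, stayed at background level on all 4 control arrays and was at least 1.36-fold higher (adjusted p = 0.00883).

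Chaperones and stress genes of the endoplasmic reticulum moved in both directions. Of 19 measured members 2 rose and 3 fell, with a median of -0.10. The medians within beadchip 1 and beadchip 2 differed in sign, at 0.14 and -0.38. Ddit3 and Ppp1r15a, a transcription factor and a phosphatase subunit of the stress response rather than chaperones, rose by 1.78 ± 0.49 and 0.77 ± 0.21, and Dnajc3 and Pdia4, a cochaperone and a disulphide isomerase, changed by -0.89 ± 0.22 and -0.45 ± 0.13 (adjusted p = 0.0406, 0.0403, 0.0286 and 0.0494). Hyou1, a chaperone of the same compartment, stayed at background level on all 3 KO arrays and was at least 1.68-fold lower (adjusted p = 0.0441). A second probe of Ddit3 changed by 1.17 and did not pass (adjusted p = 0.0538). None of the 5 passed without KO replicate 2, with adjusted p between 0.0589 and 0.162.

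Among 33 genes of lysosomes and autophagy 4 rose and 2 fell, with a median of 0.19. Bnip3l, a receptor for the removal of mitochondria, rose by 0.78 ± 0.10, and Hexa, a lysosomal hexosaminidase, by 0.71 ± 0.12 (adjusted p = 0.00069 and 0.00272). Neu1, a sialidase, and Gaa were the other 2. Atg5, needed to form autophagosomes, was at 11.63, 11.53 and 11.49 in KO hearts, against 12.03, 12.04, 12.06 and 12.11 in control hearts, without overlap, and fell by 0.51, and its second probe changed by -0.47. Becn1, which starts autophagy, changed by -0.76, but its second probe by 0.11. The same 4 rose together with Lamp2 without KO replicate 2, and Becn1 did not pass (adjusted p = 0.0659).

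Other groups showed few or no calls, or have few members. The 192 measured Zfp zinc-finger genes lay near the background, with 8 that rose (4.17%) and 4 that fell (2.08%). Of 8 connexin genes 2 fell, of 9 S100 genes 2 rose and of 4 caveolin and cavin genes 1 rose. Without KO replicate 2, 1 of these 2 connexin genes kept its call, and the called S100, caveolin and cavin genes all kept theirs. Of 31 sarcomere genes none was called by limma (at an unadjusted p under 0.05, 1 was higher and 7 were lower), and their median was -0.43, or -0.23 and -0.33 within the beadchips. Tnni3, the cardiac troponin I gene, was called lower without KO replicate 2 (-1.04, adjusted p = 0.0317). Of 18 genes of trabeculation signals none was called, also at an unadjusted p under 0.05. Of 22 Hox genes none was called (2 higher and 2 lower at an unadjusted p under 0.05), and without KO replicate 2 Hoxb4 was called higher (0.78, adjusted p = 0.0396). Of 20 Notch pathway and target genes 1 fell, Rfng, a glycosyltransferase that tunes Notch receptors, by 0.72 (adjusted p = 0.0392), and it did not pass without KO replicate 2 (adjusted p = 0.12). Hes1 (0.04) and Hey1 (0.01), repressors that Notch induces, did not pass, nor did Nrarp, a feedback inhibitor, although its KO arrays at 11.26, 11.03 and 10.99 lay below the control arrays at 11.50, 11.33, 12.12 and 11.54 (difference -0.53, adjusted p = 0.105). Among 46 genes of DNA replication 2 fell (4.35%), with a median of -0.12. Among 51 of mitosis 1 rose and 2 fell (5.88% together), with a median of -0.13. Both shares lay below the 6.85% called over all genes, but the falling shares, 4.35% and 3.92%, lay above the 2.91% that fell over all genes. At an unadjusted p under 0.05 (limma), 3 replication genes were higher and 9 lower, and 1 mitosis gene was higher and 11 lower. Without KO replicate 2 no replication gene was called, and 1 mitosis gene fell while none rose.

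The genes called in KO hearts were then read in DKO against hetDKO hearts, which share no array with KO and control. Both of those groups carry MesP1-cre and lack Axin2, and hetDKO hearts keep 1 unfloxed copy of Rbpj. In that comparison 776 genes were called (8.0%), 417 higher (4.3%) and 359 lower (3.7%). Of the 382 genes that rose in KO hearts, 375 had positive differences between DKO and hetDKO and 219 were called higher, with a median of 0.62, against -0.01 over all genes. Of the 282 that fell, 276 had negative differences and 134 were called lower, with a median of -0.48. Of all genes, 49.1% had positive differences. Iqub was the 1 gene called in opposite directions, and its control arrays were all at background level. A test of the difference between both comparisons (interaction, limma) called no gene, with 422 of the 9697 genes at an unadjusted p under 0.05. How large a difference this test could detect was not examined, so the lack of calls does not show that both comparisons are alike. Both comparisons were read from 1 fit and so share the estimate of the spread. P4ha2 rose by 1.90 in DKO hearts, Pygl by 1.65 and Stc2 by 3.13, while Gja5 fell by 2.14. In the lists, 8 collagen-modifying enzymes and 5 glycogen genes rose, and 8 cholesterol genes, 3 fatty acid genes and 17 mitochondrial ribosomal protein genes fell. Glycolysis genes rose in 12 cases and none fell. Of the 22 collagen genes, 2 were called higher, and the collagens' median was 0.37, against 0.46 for the collagen-modifying enzymes. Epicardial genes had a median of 0.11 and Wt1 a difference of 0.39 (adjusted p = 0.534). Lgals3 differed by 0.06 in DKO hearts, and the interaction did not pass (adjusted p = 0.938).

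**Figure D4:**
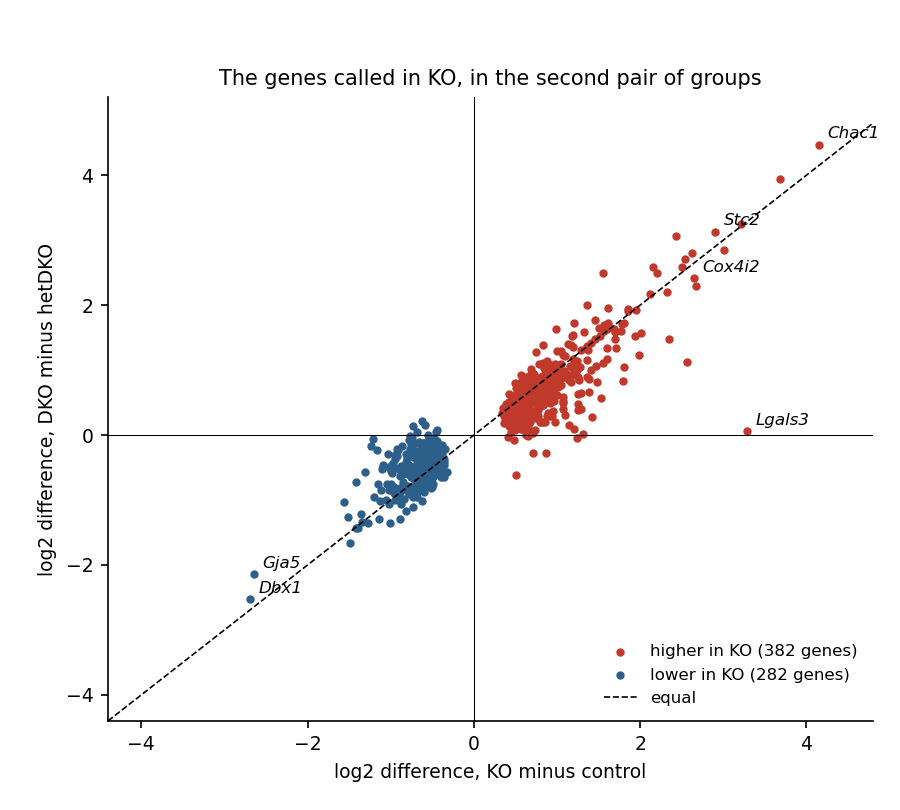
Each point is 1 of the 664 genes called in KO against control hearts, with that log2 difference on the horizontal axis and the log2 difference between DKO and hetDKO hearts on the vertical axis. Of the genes that rose, 375 of 382 lie above 0, and of those that fell, 276 of 282 lie below 0, while Lgals3 lies near 0 on the vertical axis.

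Some genes were measured by several probes, and those probes did not shift alike. For 2544 genes with several probes, the brightest probe was called higher for 113 and lower for 72, with a median difference of 0.00. Of their 3541 dimmer probes, 99 were called higher and 244 lower, with a median of -0.10. Without KO replicate 2 the dimmer probes gave 69 higher and 122 lower, and without control replicate 4 they gave 116 higher and 211 lower. Between DKO and hetDKO hearts they gave 123 higher and 139 lower. The median signal of a dimmer probe relative to its brightest probe, after the mean over all arrays was removed, was -0.02, -0.04 and -0.05 on the KO arrays, 0.15 on control replicate 4 and 0.00 to 0.02 on the other control arrays. Where the probes lie in their transcripts was not analysed here, and the part of RNA quality was not tested. Of the called genes that had several probes, all other probes had the same sign for 91 of 113 that rose and 58 of 72 that fell. Another probe was called the same way for 58 and 29 of them. The 1 gene that rose and had a probe called the opposite way was Dnajb6. Its brightest probe changed by 0.65 and the other by -0.72 (limma, adjusted p = 0.00499 for the latter).

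**Figure D5:**
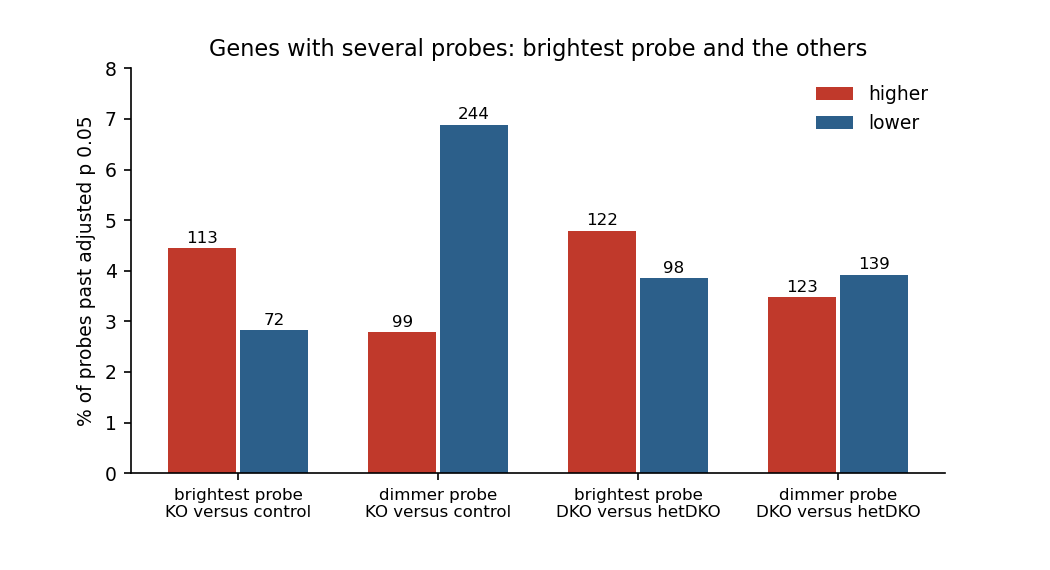
Bars give the percentage of probes past an adjusted p of 0.05, higher or lower, for the brightest probe (2544) and the dimmer probes (3541) of genes with several probes, in both comparisons. In KO against control, 244 dimmer probes were called lower and 99 higher, and numbers above the bars are counts of probes.

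The 5 genes whose positive differences rested most on KO replicate 2 are known from placenta and blood, and none of them was called (limma). Hbb-bt, an adult beta globin gene, had 8.28, 13.09 and 6.09 in KO hearts, against 6.74, 5.96, 6.86 and 7.32 in control hearts, with 1 KO array far above the rest. The difference of 2.43 was 0.46 without that array. Prl3d3, a placental lactogen gene, was at 10.03, 13.56 and 7.85 in KO hearts, against 7.59, 8.22, 6.74 and 8.95 in control hearts, and its difference was 2.60 with and 1.06 without that array. Prl2c3, Prl2c4 and S100a8, the last of them a calgranulin gene of neutrophils, were the other 3. In the other direction Aldh1l2, the mitochondrial formyltetrahydrofolate dehydrogenase, was at 9.99, 7.11 and 9.72 in KO hearts, against 6.90, 6.58, 6.47 and 6.43 in control hearts. KO replicate 2 alone lay close to the control arrays, and the difference of 2.35 was 3.26 without it (adjusted p = 0.0536 and 0.0107). Cap1, Sfrp1, Hoxc6 and 4930555G01Rik shifted the same way. The 8 measured genes of the prolactin and Psg families had a median of 2.004, or 0.65 without KO replicate 2, and none was called (limma).

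The changes were spread over the genome. Between 4.04% (chromosome 18) and 8.99% (chromosome 19) of the genes on each chromosome were called, leaving aside chromosome Y with 4 genes and none called. Around Mesp1 on chromosome 7, the gene whose promoter drives the cre, 6 of 53 genes within 5 megabases were called (11.3%), 3 in each direction. They include Anpep, an aminopeptidase, which rose by 1.03, and Mrps11. Around Rbpj on chromosome 5, 2 of 11 genes within 5 megabases were called, Pi4k2b, a phosphatidylinositol kinase, which rose by 0.53, and Pcdh7, a protocadherin, which fell by 0.64. Between DKO and hetDKO hearts, which both carry MesP1-cre, 4 of these 8 passed: Anpep differed by 0.98, Klhl25 by -0.87, Mrps11 by -0.76 and Pi4k2b by 0.61. The other 4 did not pass, with Whamm at 0.61, Abhd2 at 0.31, Fsd2 at -0.54 and Pcdh7 at -0.24 (adjusted p = 0.173, 0.523, 0.107 and 0.413).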

How the data were processed

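Total RNA was made into biotinylated cRNA with a TotalPrep kit and hybridised to Illumina beadchips, per the labels' protocols. The deposited table gives, per the file headers, an average bead intensity on a linear scale and a detection p-value for each of 25696 probes and 16 arrays. The authors deposited a second table of 14788 probes, as intensity with shared quantiles, which was used as an alternative. The submitters' processing notes name BeadStudio, with no version or settings.

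Background was removed with limma 3.58.1 (normexp on detection p-values, offset 16), arrays were quantile normalised and values put on the log2 scale, called signal. A probe needed a detection p under 0.05 on 2 or more arrays, a filter that 14058 probes passed and 11638 did not. Of the 14058, 13238 (94.2%) had 1 gene symbol in the platform annotation, none had several and 820 had none. Each gene was read from its brightest probe over all arrays. A single limma fit over the 16 arrays, DKOhet arrays included, gave each group its own mean (R 4.3.3). Benjamini-Hochberg adjustment ran over the 14058 probes. The 7 arrays of KO and control limit the precision. On simulated arrays the KO against control contrast recovered 24%, 74%, 96% and 96% of probes changed by 0.5, 1, 2 and 3 (log2). Each size was given to 50 of 14058 probes. The simulated noise was normal and independent between probes and arrays, with no outlying array and no beadchip effect. These rates therefore need not hold for the real arrays.

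Named genes were the 15 largest rises and falls without overlap, the 5 per direction that shifted most with KO replicate 2, and the marker genes. They also include up to 4 members per direction of each described list (2 with the smallest p where none passed). The largest rises and falls had to be detected on every array of the higher group, and X- and Y-linked sex genes were left out of them. Of 8 measured sex genes none was called, with log2 differences between -1.55 and 1.65. Genes given as not called beside a list, as called only without an array or as near Mesp1 or Rbpj were chosen after their values were seen. Members, lists and motifs were chosen with earlier results of these data known.

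The alternatives were another normalisation (cyclic loess, median scaling), the authors' table, an offset of 50, a stricter or no probe filter, array weights, beadchip or replicate number as a block, other probes of a gene, and leaving out arrays. Same-numbered KO and control arrays correlated by 0.07, 0.11 and 0.00 in their deviations from group means, so the numbers were not taken as pairs.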

Additional observations from a re-analysis of the deposited data

Results flagged for a closer look

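Among 189 called genes that the naming rule selected, 12 (6.35%) had 1 control array far from the other 3, where chance gives about 1 in 20. The array was control replicate 4 for 8 of them. On it Nrn1 had a log2 signal of 6.93, against 5.80 to 5.90 on the other 3 control arrays, Hspb3 had 9.31 (8.97 to 9.03), Aldoa, a glycolytic enzyme, 14.43 (14.07 to 14.09), Dnajb6, a cochaperone, 10.78 (10.38 to 10.44) and Mcm3, of the replicative helicase, 11.82 (11.28 to 11.34). It was low for Zfp36, an mRNA decay factor, at 8.35 (8.66 to 8.71), Slc25a47, a mitochondrial carrier, at 8.07 (8.63 to 8.74) and Kdm4b at 11.22 (11.59 to 11.63). Control replicate 2 stood apart for Myc at 7.39 (7.63 to 7.64), Ncapd2, a condensin subunit, at 12.32 (12.50 to 12.53) and Bub3, of the spindle checkpoint, at 10.6 (10.40 to 10.42). Control replicate 1 stood apart for Trp53inp1, a p53 target, at 9.73 (9.85 to 9.87).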

How the results depend on the processing

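The number of arrays limits these results. None of the 664 called genes changed sign under the other normalisations, the authors' table, the offset, the filters, array weights or the blocks. None did with single beadchips or left-out arrays either. For the 372 rises and 269 falls without overlap between KO and control arrays, those last settings could not turn the sign, so this is no measure of stability. Another choice of probe turned the sign of 1 called gene (the lowest-p probe) or 31 (the dimmest probe, added after seeing the data). In KO against control, array weights called 1223 genes (636 higher, 587 lower), the 7 KO and control arrays alone 229 (175 and 54), beadchip 1 alone 177 (131 and 46) and beadchip 2 alone 75 (69 and 6). The lowest-p probe of each gene gave 465 lower. With single arrays left out, the counts were 340 to 670 in all, 220 to 360 higher and 120 to 310 lower, and they were lowest without KO replicate 1 (340) and KO replicate 3 (352), 390 without control replicate 3 and 410 without control replicate 1. Falls alone numbered 170 without KO replicate 2 and 179 without control replicate 2. Without both KO replicate 2 and control replicate 4, a setting added after seeing the data, 485 were called. In DKO against hetDKO, array weights called 1382 genes, and leaving out single arrays gave 303 to 699. The interaction called no gene under any of the alternatives run.

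With the beadchip as a block, 876 genes were called in KO hearts (494 rising and 382 falling) and 1044 in DKO against hetDKO. With the replicate block, 781 genes were called in KO hearts (437 rising and 344 falling) and 929 in DKO against hetDKO, but the numbers do not pair the samples. Of the 189 called genes that the naming rule selected, 188 kept their call with the beadchip block and 157 with the replicate block. Without KO replicate 2, 118 kept it, with KO and control arrays only 76, and within beadchip 1 59. Over the alternatives glycolysis genes rose in 1 to 12 cases, glycogen genes in 0 to 5, collagen-modifying enzymes in 0 to 8, angiogenic genes in 2 to 6, FGF response genes in 0 to 5, epicardial genes in 0 to 4, lysine demethylases in 0 to 3, lysosomal genes in 0 to 8 and solute carriers in 1 to 14. All of these counts were lowest within beadchip 2, where the KO group has 1 array. Lysine demethylases also had 1 call within beadchip 1 and without KO replicate 1 or 3 or control replicate 1, 3 or 4. Solute carriers that fell numbered 0 to 5, and ER chaperone list genes 0 to 2 higher and 0 to 4 lower. Calls of cholesterol genes numbered 0 to 8, of fatty acid genes 0 to 4, of citric acid cycle genes 0 to 3 and of mitochondrial ribosomal protein genes that fell 0 to 20, which was the count with array weights. Their medians kept a negative sign without KO replicate 2 and within each beadchip. For the citric acid cycle list these medians were -0.13, -0.09 and -0.03.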
